A study of Rattus norvegicus with 30 samples.

Results

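The small leucine-rich proteoglycans are secreted proteins whose curved leucine-rich repeats bind collagen, and they set how collagen fibrils assemble and how thick they grow. Most carry glycosaminoglycan chains. Decorin (Dcn) and biglycan (Bgn) carry chondroitin or dermatan sulfate, and fibromodulin (Fmod), lumican (Lum) and keratocan (Kera) can carry keratan sulfate. In tendon, decorin and fibromodulin are abundant in mature tissue, and lumican and fibromodulin compete for a shared site on type I collagen. Of 10 genes listed for this family, 8 were among the 13124 genes of the count table and all 8 passed the filter on low expression, namely Dcn, Bgn, Fmod, Lum, Kera, Prelp (prolargin), Ogn (osteoglycin) and Chad (chondroadherin). Omd (osteomodulin) and Aspn (asporin) were not analysed here. Membership was set by gene name.

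RNA sequencing counts came from the right plantaris tendons of 30 male Sprague Dawley rats that were 3 months old. In 27 rats the plantaris tendon was cut through its full thickness and immediately sutured with a Bunnell stitch, while the Achilles tendon was left intact. These rats received by oral gavage GSK2894631A, which blocks the prostaglandin D2 enzyme HPGDS, 2 times a day at 0, 2 or 6 mg/kg, and the 0 mg/kg rats received vehicle alone. The 3 control tendons came from rats that had no surgery and were not given the compound, labelled 0 days and 0 mg/kg. Whether they were given vehicle is not stated in the sources used here. Tendons harvested after 7 days numbered 5, 4 and 3 at 0, 2 and 6 mg/kg, and 5 tendons per dose were harvested after 21 days. Tendons of the 0 mg/kg rats are called vehicle tendons, shown as 7D 0 mg/kg and 21D 0 mg/kg in the plots. Each tendon was sequenced whole, so that fewer cells of a type and less RNA per cell cannot be told apart.

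Total counts were 12405741 to 49909374 per tendon, and the 2 most alike tendons of any group still differed by a chi-square of 29.6 per gene, so none was a duplicate. Values are given as CPM, which are counts per 1e+06 counts after scaling by TMM, with factors of 0.599 to 0.788 in control tendons and 0.950 to 1.10 in repaired tendons. CPM were not divided by transcript length, so levels are compared between tendons and not between genes. Control tendons held muscle RNA. A list of 16 skeletal muscle genes accounted for 17.2 to 24.6% of the reads counted in controls, 0.151 to 1.14% in 7-day vehicle tendons, 0.00760 to 0.00953% in 7-day tendons given the compound and 0.0590 to 8.62% in 21-day tendons. The 3 control tendons also differed from each other. Over all genes, tendon 4 was furthest from the rest. Its chi-square per gene was 319 against tendon 2 and 296 against tendon 3, where tendons 2 and 3 gave 71.4. Control tendon 2 had the highest level of every member but Ogn. It held 2053 CPM of 8 cartilage marker genes against 324 and 284 CPM. Most of this was Comp, at 959 CPM against 171 and 134 CPM, and Clec3a, a cartilage lectin, at 765 CPM against 76.3 and 28.9 CPM. Acan, Col2a1 and Col11a2 were highest there too. Sox9 (3.16 against 5.09 and 3.68 CPM) and Matn3 (0.0472 against 0.200 and 1.23 CPM) were lowest there, and Col9a1 was at 8.45 against 8.78 and 5.72 CPM. The summed tendon fibroblast markers were also highest there, at 31958 against 18606 and 8132 CPM. Calls that change without control tendon 2 are given both ways, and calls that change without control tendon 3 or 4 are given with the member.

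Several members lie side by side in the rat genome (RefSeq, GRCr8). Dcn, Lum and Kera are consecutive protein-coding genes on chromosome 7, Prelp and Fmod are neighbours on chromosome 13, Ogn lies on chromosome 17, Chad on chromosome 10 and Bgn on the X chromosome. RefSeq promoters were matched for Lum, Kera, Fmod, Chad and Ogn, 5 of the 8 members, and not for Dcn, Bgn and Prelp. The 250 bases before the gene start are printed for Lum, the member that rose most, and for Kera, Fmod and Chad, which were called lower. The Fmod calls rested mostly on control tendon 2, as given below. All 4 printed promoters are on the plus strand, at chr7:34245456-34245705 for Lum, chr7:34283850-34284099 for Kera, chr13:48045317-48045566 for Fmod and chr10:80008795-80009044 for Chad. Capitals mark CANNTG, the E-box, which basic helix-loop-helix factors such as scleraxis (Scx) bind and which reads as the same pattern on both strands.

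Lum: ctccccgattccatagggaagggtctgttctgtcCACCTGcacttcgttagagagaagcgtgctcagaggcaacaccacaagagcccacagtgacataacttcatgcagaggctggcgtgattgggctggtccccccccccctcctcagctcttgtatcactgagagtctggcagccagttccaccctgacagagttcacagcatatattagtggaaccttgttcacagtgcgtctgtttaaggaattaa

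Kera: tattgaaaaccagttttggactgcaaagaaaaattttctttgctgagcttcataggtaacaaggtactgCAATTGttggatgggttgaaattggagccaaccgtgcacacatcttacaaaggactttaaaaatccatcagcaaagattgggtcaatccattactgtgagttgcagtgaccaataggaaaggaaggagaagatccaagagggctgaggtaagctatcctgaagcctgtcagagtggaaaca

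Fmod: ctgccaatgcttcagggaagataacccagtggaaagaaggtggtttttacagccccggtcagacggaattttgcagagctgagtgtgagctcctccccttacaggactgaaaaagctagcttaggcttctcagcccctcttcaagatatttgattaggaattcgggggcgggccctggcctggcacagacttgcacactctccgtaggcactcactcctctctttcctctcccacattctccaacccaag

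Chad: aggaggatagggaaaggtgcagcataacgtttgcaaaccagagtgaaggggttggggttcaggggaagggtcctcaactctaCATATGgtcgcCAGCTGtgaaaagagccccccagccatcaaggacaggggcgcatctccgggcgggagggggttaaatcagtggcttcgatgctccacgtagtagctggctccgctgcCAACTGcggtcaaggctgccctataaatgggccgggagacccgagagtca

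CANNTG occurred 1 time in the Lum promoter, at position -216 from the gene start, 1 time in the Kera promoter, at position -181, and 3 times in the Chad promoter, and was not found in the Fmod window. It occurred in 65.5% of all 33469 rat promoters of this length, and 11.5% of them held 3 or more, so 1 match is close to what most promoters hold. The letters TATAAA, searched on both strands, occurred in the Chad promoter at position -29 and in none of the other 3 printed, and in 12.9% of all promoters. These are matches of letters and not sites shown to be bound.

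The 8 transcripts did not move together after tenotomy and repair. Compared to control tendons, Lum and Bgn were higher and Chad was lower in all 6 repaired groups, Fmod and Kera were lower in 5 of 6, Prelp was higher in 4 of 6, and Dcn and Ogn were called in none (edgeR's quasi-likelihood test, Benjamini-Hochberg adjusted p under 0.05). Without control tendon 2 most Fmod calls and the 21-day Kera calls were lost, and Prelp was called in all 6 groups. Without control tendon 3 or 4, Prelp lost its calls in 7-day 2 mg/kg and 21-day vehicle tendons. Dcn and Ogn gained calls without single control tendons. All 27 repaired tendons were above all 3 control tendons for Lum and Bgn, and all 27 were below them for Chad. The share of all genes that separated in this way was not computed, so here and below such gaps only describe the levels. The plot of CPM by group shows these levels in each tendon.

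These calls are set against a large background. Of 12558 genes tested, 35.8% were higher and 35.6% lower in 7-day vehicle tendons than in control tendons, where 2 of the 8 members were higher and 3 lower. In 21-day vehicle tendons 3 members were higher and 3 lower, against 32.2% and 33.7% of all genes. In 7-day 2 mg/kg tendons 3 were higher and 3 lower, against 35.8% and 34% of all genes, and in 7-day 6 mg/kg tendons 2 and 3, against 34.1% and 33.8%. In 21-day 2 mg/kg tendons 3 were higher and 3 lower, against 33.8% and 35.3%, and in 21-day 6 mg/kg tendons 3 and 1, against 30.8% and 33.3%. The number of members called was thus near the share of all genes called. The members' median log2 fold change was 0.17 in 7-day vehicle and 0.45 in 21-day vehicle tendons, and that of all genes tested was 0.05 and 0.03. The largest rise among the members in 7-day vehicle tendons was 29.0-fold, for Lum, and the largest fall was 53.5-fold, for Chad.

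**Figure D1:**
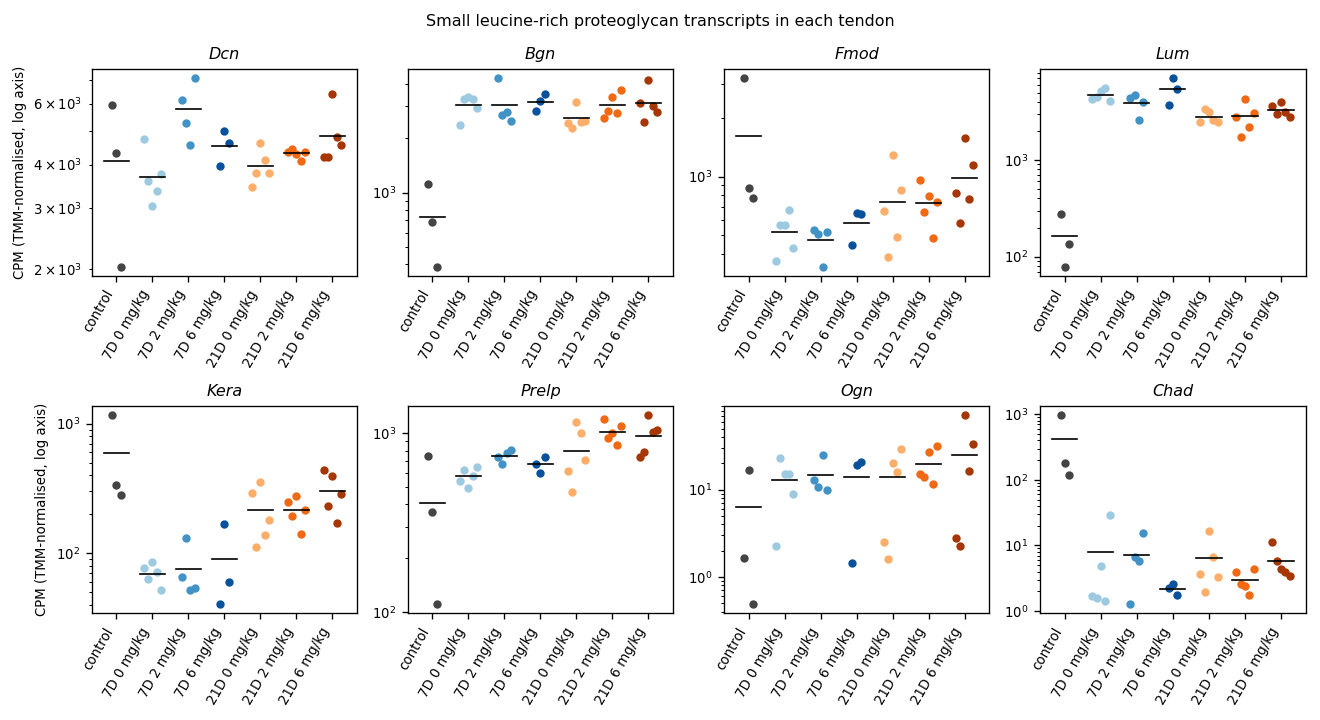
CPM after TMM scaling on a log axis for the 8 members, with 1 point per tendon, a bar at the group mean and the 7 groups along the horizontal axis. The 27 repaired tendons lie above every control tendon for Lum and Bgn and below every control tendon for Chad, and at each dose the 21-day tendons lie above the 7-day tendons for Kera.

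Lumican, which carries keratan sulfate and regulates fibril diameter, had the largest rise. Lum was at 274, 78.7 and 135 CPM in the 3 control tendons, at 4275, 4467, 5178, 5548 and 4102 CPM in the 7-day vehicle tendons and at 2455, 3341, 3143, 2575 and 2482 CPM in the 21-day vehicle tendons. The lowest repaired tendon of any group was at 1732 CPM, so the groups did not overlap. Means were 163 ± 100.4 CPM (SD, n = 3) in control tendons, 4714 ± 621 CPM (SD, n = 5) in 7-day vehicle tendons and 2799 ± 413 CPM (SD, n = 5) in 21-day vehicle tendons. The log2 fold change of Lum against control tendons was 4.86 (SE 0.38, adjusted p = 1.41e-10) in 7-day vehicle tendons, a 29.0-fold rise, and 4.11 (SE 0.37, adjusted p = 3.58e-09) in 21-day vehicle tendons, a 17.2-fold rise. In the 4 groups that received the compound the log2 fold change against control tendons was 4.60, 5.05, 4.12 and 4.36 at 2 and 6 mg/kg after 7 days and at 2 and 6 mg/kg after 21 days.

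Biglycan, which resembles decorin in sequence and signals to immune receptors when released from matrix, was the other member to rise in every repaired group. Bgn was at 1118, 685 and 388 CPM in control tendons, 2360.1, 3322, 3402, 3287 and 2929.7 CPM in 7-day vehicle tendons and 2443, 2276, 3195, 2474 and 2504 CPM in 21-day vehicle tendons. The highest control tendon held less than the lowest repaired tendon, at 2276 CPM. Against control tendons its log2 fold change was 2.07 (SE 0.26, adjusted p = 1.74e-07) in 7-day vehicle tendons, a 4.19-fold rise, and 1.82 (SE 0.26, adjusted p = 1.59e-06) in 21-day vehicle tendons, a 3.53-fold rise. Across the 6 repaired groups the log2 fold change of Bgn lay between 1.82 and 2.12. Bgn and Lum stayed higher in all 6 groups under each of 9 other processing settings and when any 1 tendon was left out, with log2 fold changes of 1.47 to 2.67 for Bgn and 3.81 to 5.64 for Lum.

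Decorin, the most studied tendon proteoglycan, showed no change past the threshold. Dcn was at 5947, 4323 and 2029 CPM in control tendons, 4735, 3575, 3038, 3355 and 3753 CPM in 7-day vehicle tendons and 3445, 3777, 4631, 4133 and 3791 CPM in 21-day vehicle tendons. These vehicle tendons fell within the range of the control tendons, which itself spanned 2.93-fold. Its log2 fold change was -0.15 (SE 0.22, adjusted p = 0.553) in 7-day vehicle tendons, with a 95% interval of -0.61 to 0.31, and -0.05 (SE 0.22, adjusted p = 0.848) in 21-day vehicle tendons, with an interval of -0.51 to 0.41. The sign depended on single control tendons. Without control tendon 2 the 7-day vehicle value was 0.15, and without control tendon 4 Dcn was lower past the threshold in both the 7-day vehicle tendons (-0.53, adjusted p = 0.0130) and the 21-day vehicle tendons (-0.42, adjusted p = 0.0497). Scaled by library size only, which moves the median of all genes to 0.641, the 7-day vehicle value was 0.40 (adjusted p = 0.149), while Dcn was called higher in 7-day 2 mg/kg (1.005, adjusted p = 0.00155), 7-day 6 mg/kg (0.68, adjusted p = 0.0297) and 21-day 6 mg/kg tendons (0.69, adjusted p = 0.0185). At 7 days and 2 mg/kg Dcn had its highest mean, 5773 CPM, and a log2 fold change of 0.49 (SE 0.24, adjusted p = 0.0655) against control tendons, which was past the threshold without control tendon 2 (0.80, adjusted p = 0.00521) or 7-day 2 mg/kg tendon 4 (0.59, adjusted p = 0.0390), and with the filter at 10 CPM (0.53, adjusted p = 0.0493). In 21-day 6 mg/kg tendons it was past the threshold without control tendon 2 (0.54, adjusted p = 0.0436).

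Keratocan, a keratan sulfate proteoglycan best known from cornea and also found in tendon, fell in 7-day tendons. Kera was at 1157, 339 and 280.0 CPM in control tendons and at 77.0, 63.2, 85.6, 71.2 and 51.8, 66.2, 131, 52.2 and 53.8 and 40.8, 168 and 60.6 CPM in the 7-day tendons with vehicle, 2 mg/kg and 6 mg/kg. All 12 of these 7-day tendons were below all control tendons. The log2 fold change was -3.09 (SE 0.46, adjusted p = 2.39e-06) in 7-day vehicle tendons, an 8.49-fold fall, -2.96 (SE 0.50, adjusted p = 1.28e-05) in 7-day 2 mg/kg tendons and -2.72 (SE 0.55, adjusted p = 0.000129) in 7-day 6 mg/kg tendons. Left out, control tendon 2 changed the 7-day values to -2.22 (adjusted p = 0.000103), -2.09 (adjusted p = 0.000404) and -1.84 (adjusted p = 0.00276), and the calls held. With the skeletal muscle share as a covariate Kera was not called in 7-day 2 mg/kg (-2.52, adjusted p = 0.124) and 7-day 6 mg/kg tendons (-2.295, adjusted p = 0.16). That covariate cut the calls over all genes too. At 2 mg/kg they went from 4491 higher and 4266 lower to 566 and 784, and at 6 mg/kg from 4283 and 4246 to 603 and 791. The same 2 fits are given for Fmod, Prelp and Chad below. In 21-day tendons Kera was at 291, 111, 356, 139 and 179 CPM with vehicle, 251, 194, 277, 140.2 and 216 CPM with 2 mg/kg and 435, 232, 394, 172 and 288 CPM with 6 mg/kg. The vehicle and 6 mg/kg tendons overlapped the control tendons, and the 2 mg/kg tendons were below all 3, the closest at 277 against 280.0 CPM. The log2 fold changes against control tendons were -1.46 (SE 0.45, adjusted p = 0.00682), -1.46 (SE 0.45, adjusted p = 0.00637) and -0.96 (SE 0.46, adjusted p = 0.0674) at 0, 2 and 6 mg/kg. The first 2 values became -0.58 (adjusted p = 0.27) and -0.60 (adjusted p = 0.248) without control tendon 2, and were not called, and the third became -0.09 (adjusted p = 0.875). The third was called without control tendon 3 (-1.22, adjusted p = 0.0366), control tendon 4 (-1.34, adjusted p = 0.0225) or 21-day 6 mg/kg tendon 1 (-1.12, adjusted p = 0.0451), and with DESeq2 (-0.99, adjusted p = 0.0411). Scaled by library size only, the first 2 were not called (adjusted p = 0.0730 and 0.0644), nor was the first in the fit of only the groups compared (adjusted p = 0.0557).

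Fibromodulin, which carries keratan sulfate and sulfated tyrosines and is needed for normal tendon fibrils, had lower means in every repaired group, and its calls rested mostly on control tendon 2. Fmod was at 3209.6, 869 and 772 CPM in control tendons, 369, 565, 561, 676 and 431 CPM in 7-day vehicle tendons and 661, 383, 1293, 491 and 850.4 CPM in 21-day vehicle tendons. The control tendons at 869 and 772 CPM were above every 7-day tendon, and control tendon 2, at 3209.6 CPM, held 4.16 times the lower of them. The log2 fold change was -1.64 (SE 0.39, adjusted p = 0.000601) in 7-day vehicle tendons and -0.72 (adjusted p = 0.0776) without control tendon 2. It was -1.77 (SE 0.42, adjusted p = 0.00058) in 7-day 2 mg/kg tendons and -0.85 (adjusted p = 0.0475) without that tendon, the one Fmod call that held. In 7-day 6 mg/kg tendons it was -1.48 (SE 0.45, adjusted p = 0.00566), and -0.56 (adjusted p = 0.223) without that tendon. The 21-day values of -1.14 (SE 0.39, adjusted p = 0.0129) with vehicle and -1.15 (SE 0.39, adjusted p = 0.0111) with 2 mg/kg became -0.21 (adjusted p = 0.626) and -0.25 (adjusted p = 0.562). In 21-day 6 mg/kg tendons Fmod was not called (-0.73 (adjusted p = 0.106)), and its sign turned without control tendon 2 (0.19 (adjusted p = 0.677)). It was called there without control tendon 3 (-1.01, adjusted p = 0.0403), control tendon 4 (-1.10, adjusted p = 0.0243) or 21-day 6 mg/kg tendon 3 (-0.96, adjusted p = 0.0397). With all tendons, the Fmod calls in 7-day 6 mg/kg, 21-day vehicle and 21-day 2 mg/kg tendons were lost when scaled by library size only (adjusted p = 0.0703, 0.167 and 0.141) and in the fit of only the groups compared (adjusted p = 0.0643, 0.127 and 0.0618), and those in 7-day 2 and 6 mg/kg tendons with the skeletal muscle share as a covariate (adjusted p = 0.193 and 0.271).

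Prolargin, which binds heparan sulfate and anchors basement membrane to connective tissue, had higher means in every repaired group and was called mostly in 21-day tendons. Prelp was at 749.6, 364 and 111 CPM in control tendons, 544, 624, 493, 575 and 648 CPM in 7-day vehicle tendons and 1198, 936, 1008, 861 and 1092 CPM in 21-day 2 mg/kg tendons. All 5 of the 21-day 2 mg/kg tendons were above the control tendons, while 7-day vehicle tendons lay inside their range. The log2 fold change was 0.50 (SE 0.34, adjusted p = 0.191) in 7-day vehicle, 0.87 (SE 0.36, adjusted p = 0.0325) in 7-day 2 mg/kg and 0.72 (SE 0.38, adjusted p = 0.0929) in 7-day 6 mg/kg tendons. In 21-day tendons it was 0.96 (SE 0.35, adjusted p = 0.0176) with vehicle, 1.32 (SE 0.35, adjusted p = 0.00185) with 2 mg/kg and 1.24 (SE 0.35, adjusted p = 0.00341) with 6 mg/kg. Control tendon 4, with the lowest Prelp level and the largest share of muscle counts, set part of this. Without it the 7-day vehicle value was -0.00428 (adjusted p = 0.990), the 7-day 2 mg/kg value was 0.38 (adjusted p = 0.235) and the 21-day vehicle value was 0.47 (adjusted p = 0.142), whereas the 21-day calls at 2 and 6 mg/kg held without any 1 tendon. Fitted with only the groups compared, Prelp was not called in 7-day 2 mg/kg (adjusted p = 0.192), 21-day vehicle (adjusted p = 0.183) or 21-day 6 mg/kg tendons (adjusted p = 0.0714), and with the skeletal muscle share as a covariate it was not called in 7-day 2 mg/kg tendons (adjusted p = 0.506). Scaled by library size only, it was called in 7-day vehicle (1.03, adjusted p = 0.0131) and 7-day 6 mg/kg tendons (1.25, adjusted p = 0.00709) too. Without control tendon 3, Prelp also lost its call in 7-day 2 mg/kg tendons (adjusted p = 0.0884) and in 21-day vehicle tendons (adjusted p = 0.0541). Left out in turn, 7-day 2 mg/kg tendons 4 and 5 ended the 7-day 2 mg/kg call too (adjusted p = 0.0529 and 0.0564). Without control tendon 2, Prelp was called higher in 7-day vehicle tendons (1.21, adjusted p = 0.00266) and 7-day 6 mg/kg tendons (1.45, adjusted p = 0.00114) as well, and its log2 fold changes were 1.59 in 7-day 2 mg/kg tendons and 1.68, 2.02 and 1.96 in 21-day tendons at 0, 2 and 6 mg/kg.

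Chondroadherin, a leucine-rich protein of cartilage and tendon that carries no glycosaminoglycan chain and binds collagen and integrins, had the largest fall. Chad was at 963, 179.9 and 119 CPM in control tendons, 1.70, 1.59, 4.90, 1.42 and 29.6 CPM in 7-day vehicle tendons and 3.63, 1.95, 16.3, 6.78 and 3.26 CPM in 21-day vehicle tendons. Repaired tendons held 34 to 1192 counts of Chad and control tendons 1460 to 20405 counts, so the low levels were measured above the counting floor. The log2 fold change was -5.74 (SE 0.92, adjusted p = 5.91e-06) in 7-day vehicle tendons, a 53.5-fold fall, -7.61 (SE 1.27, adjusted p = 1.18e-05) in 7-day 6 mg/kg tendons and -6.03 (SE 0.93, adjusted p = 5.28e-06) in 21-day vehicle tendons, a 65.2-fold fall. Chad stayed lower in all 6 groups when any 1 tendon was left out, with log2 fold changes of -8.09 to -4.32. Without control tendon 2, the one at 963 CPM, the 7-day vehicle value was -4.32 (adjusted p = 0.000135) and the 21-day vehicle value -4.59 (adjusted p = 9.8e-05). With the skeletal muscle share as a covariate Chad was not called in 7-day 2 mg/kg tendons (-5.50, adjusted p = 0.106). Clec3a, Col9a1 and Col11a2, which encode cartilage proteins, fell beside it in 7-day vehicle tendons, with log2 fold changes of -6.84, -4.47 and -4.14, whereas Acan and Sox9 of the same list rose by 1.93 and 0.94. Matn3 of that list was called higher too, from 1, 5 and 15 counts in the control tendons, too few to give a fold. Their part in the Chad result was not tested.

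Osteoglycin, named for bone and present in many connective tissues, had at most 71.1 CPM in any tendon. Ogn was at 1.65, 16.6 and 0.49 CPM in control tendons, 2.25, 22.9, 15.3, 15.0 and 9.01 CPM in 7-day vehicle tendons, 2.53, 1.60, 20.4, 16.1 and 29.2 CPM in 21-day vehicle tendons and 2.79, 2.23, 71.1, 16.5 and 33.4 CPM in 21-day 6 mg/kg tendons. No tendon lay between 2.79 and 9.01 CPM. Of the 30 tendons, 8 were below this gap, and they included 2 of the 3 control tendons. Of these 8, 4 carried the replicate number 1, 3 the number 2 and 1 a higher number, among 5, 6 and 19 tendons with such numbers. The labels do not say what a number marks. The log2 fold changes against control tendons were 1.005 to 1.97 with SEs of 1.07 to 1.17 and adjusted p of 0.123 to 0.415, within the spread between tendons. Control tendon 3, at 16.6 CPM, decided this: without it the log2 fold changes were 3.52 in 7-day vehicle (adjusted p = 0.0323), 3.64 in 21-day vehicle (adjusted p = 0.0302) and 4.48 in 21-day 6 mg/kg tendons (adjusted p = 0.0120), and Ogn was called higher in all 6 groups.

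**Figure D2:**
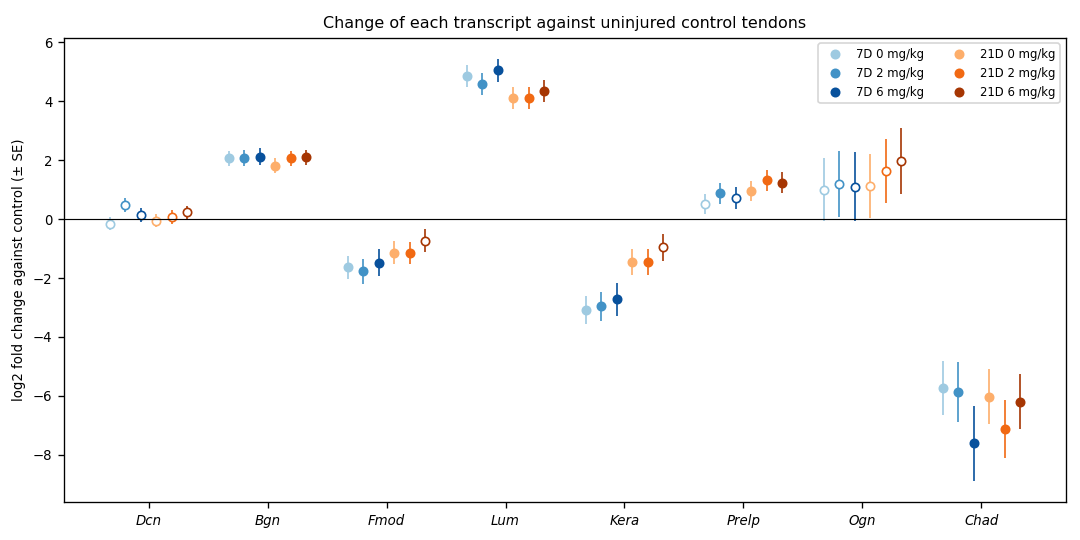
Log2 fold change of each member against control tendons in the 6 repaired groups, with bars of 1 standard error (SE); filled points passed an adjusted p of 0.05 and open points did not. Lum lies between 4.11 and 5.05 and Bgn between 1.82 and 2.12, whereas Chad lies between -7.61 and -5.74 and Dcn lies between -0.15 and 0.49.

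Ratios of 2 members within a tendon do not depend on the scaling between tendons. The Lum count was 0.0853 to 0.175 times the Fmod count in control tendons and 2.42 to 11.6 times in repaired tendons, with medians of 9.23 in 7-day vehicle and 3.71 in 21-day vehicle tendons. No repaired tendon overlapped the control tendons, although the Fmod level alone overlapped them at 21 days. The Lum level alone already separated them, at 78.7 to 274 CPM in control and 1732 to 7042 CPM in repaired tendons. The Bgn count was 0.159 to 0.191 times the Dcn count in control tendons and 0.352 to 1.12 times in repaired tendons. Bgn and Dcn therefore kept a narrow ratio among the 3 control tendons while each varied 2.88-fold and 2.93-fold between them. The Kera count was 0.360, 0.363 and 0.390 times the Fmod count in the 3 control tendons, although the Fmod level spanned 4.16-fold and the Kera level 4.13-fold between those tendons. It was 0.0920 to 0.259 times in 7-day tendons and 0.211 to 0.530 times in 21-day tendons. The Kera count was 2.07 to 4.31 times the Lum count in control tendons and 0.0110 to 0.119 times in repaired tendons, so Kera, which lies next to Lum on chromosome 7, exceeded it in counts in each control tendon and in no repaired tendon. These ratios are descriptions with no test.

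**Figure D3:**
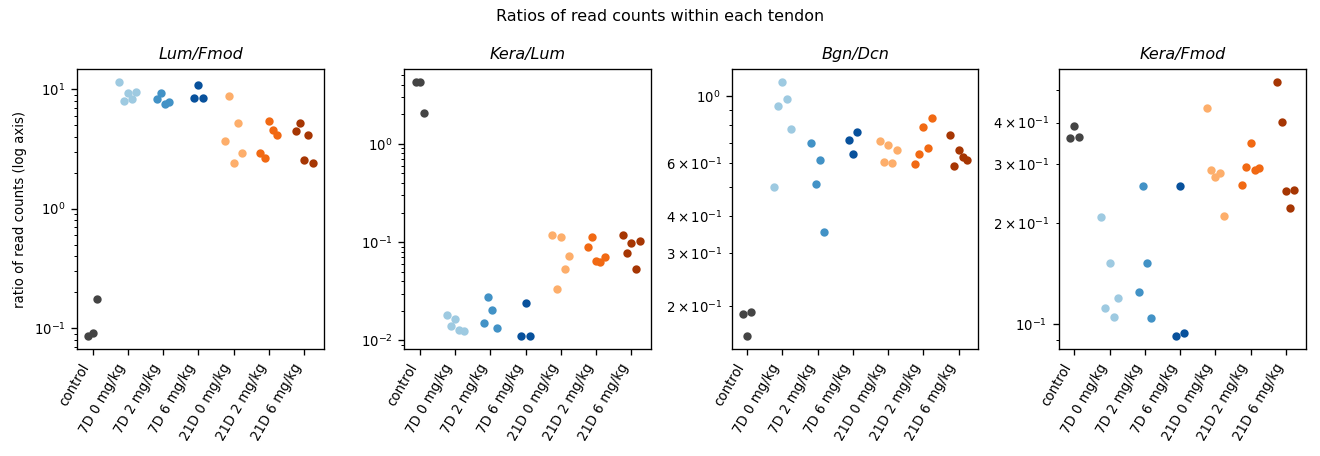
Ratios of read counts of 2 members within each tendon on a log axis, with 1 point per tendon and the 7 groups along the horizontal axis. The Lum to Fmod ratio lies at 0.0853 to 0.175 in control tendons and at 2.42 to 11.6 in repaired tendons, and the Kera to Fmod ratio lies lower in 7-day than in 21-day tendons with some overlap.

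The family as a whole took 0.230 to 0.989% of all counts in control tendons and 1.07 to 1.81% in repaired tendons. These shares are not TMM-scaled, and skeletal muscle genes took 17.2 to 24.6% of the control counts. After TMM scaling the summed levels of the members overlapped, at 3836 to 13418 CPM in control and 9921 to 17897 CPM in repaired tendons. Dcn made up 44.3 to 63.1% of the family's counts in control tendons and 23.8 to 38.3% in 7-day vehicle tendons, where its own level was not called different. The share of Lum went the other way, from 1.15 to 3.52% in control tendons to 34.3 to 41.0% in 7-day vehicle and 22.8 to 32.2% in 21-day vehicle tendons. Fmod was 12.7 to 23.9% of the family's counts in control tendons and 2.99 to 4.997% in 7-day vehicle tendons. These are shares of read counts and not of molecules, since longer transcripts give more reads.

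**Figure D4:**
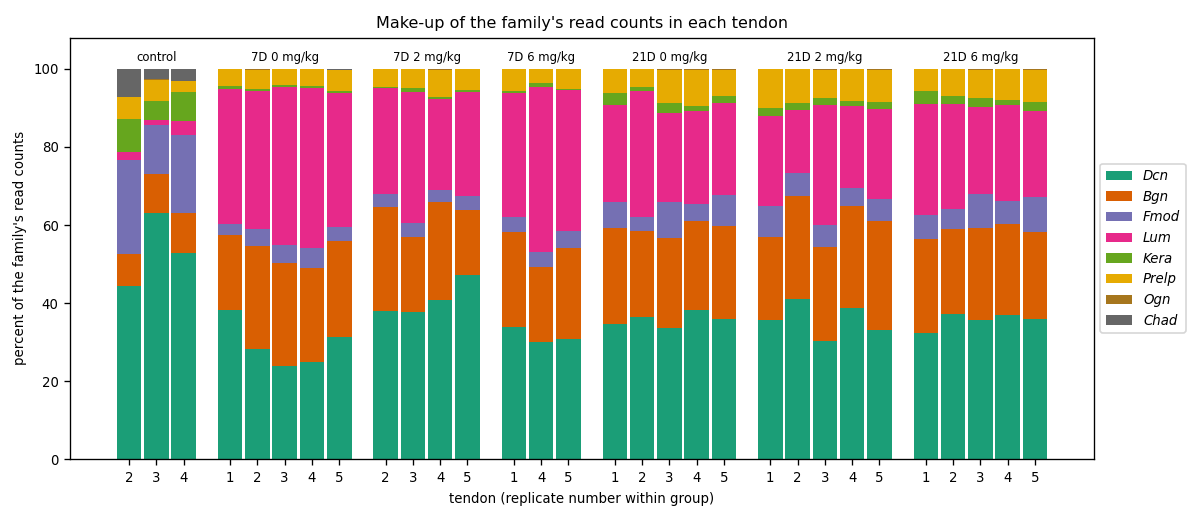
Stacked bars of the percent of the family's read counts that each member took, with 1 bar per tendon grouped by treatment and numbered by replicate. Dcn takes 44.3 to 63.1% in control tendons, and Lum takes 1.15 to 3.52% there and 34.3 to 41.0% in 7-day vehicle tendons.

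The comparison of 21-day with 7-day tendons asks which members changed as healing went on. Kera was the 1 member called, and it was higher in 21-day tendons at each dose, with log2 differences of 1.63 (SE 0.41, adjusted p = 0.0238) for vehicle, 1.505 (SE 0.44, adjusted p = 0.0252) for 2 mg/kg and 1.76 (SE 0.50, adjusted p = 0.0207) for 6 mg/kg. These are rises of 3.09-fold, 2.84-fold and 3.40-fold. At each dose every 21-day tendon was above every 7-day tendon, with 111 to 356 against 51.8 to 85.6 CPM for vehicle, 140.2 to 277 against 52.2 to 131 CPM for 2 mg/kg and 172 to 435 against 40.8 to 168 CPM for 6 mg/kg. The share of all genes whose times separated in this way was not computed. Among all genes tested 5.35%, 13.1% and 13.1% were called between the times at 0, 2 and 6 mg/kg, and 2.88%, 7.09% and 8.54% were higher in 21-day tendons. The adjusted p of Kera lay close to the threshold, and leaving out 1 tendon kept the call in 5 of 10 cases for vehicle, 4 of 9 for 2 mg/kg and 6 of 8 for 6 mg/kg. The log2 difference itself stayed between 1.38 and 1.79 for vehicle, 1.36 and 1.91 for 2 mg/kg, and 1.41 and 2.59 for 6 mg/kg. The tendons whose removal ended the call were numbers 3, 4 and 5 of the 7-day and 1 and 3 of the 21-day vehicle tendons, numbers 2, 4 and 5 of the 7-day and 1 and 3 of the 21-day 2 mg/kg tendons, and numbers 1 and 5 of the 7-day 6 mg/kg tendons, with adjusted p of 0.0527, 0.0531, 0.0621, 0.0601 and 0.0543 for vehicle, 0.0654, 0.0688, 0.0921, 0.0528 and 0.0535 for 2 mg/kg, and 0.123 and 0.109 for 6 mg/kg. The skeletal muscle share also differed between the times, as given above for each group, and with that share as a covariate the Kera differences were 1.53 (adjusted p = 0.0705), 1.20 (adjusted p = 0.308) and 1.47 (adjusted p = 0.337). At 6 mg/kg the call was also lost in the fit of only the groups compared (adjusted p = 0.0622).

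Lum had lower means in 21-day than in 7-day tendons without passing the threshold, with log2 differences of -0.75 (adjusted p = 0.0809), -0.48 (adjusted p = 0.258) and -0.70 (adjusted p = 0.121) at 0, 2 and 6 mg/kg and 95% intervals of -1.29 to -0.22, -1.04 to 0.09 and -1.30 to -0.09. Fitted with only the 2 groups compared, the 0 mg/kg difference of Lum was past the threshold (-0.74, adjusted p = 0.0275), and so it was with DESeq2 (-0.75, adjusted p = 0.0396). Fmod had higher means, with log2 differences of 0.50 (adjusted p = 0.401), 0.62 (adjusted p = 0.279) and 0.76 (adjusted p = 0.238). The intervals of the other members included 0 at every dose except that of Dcn at 2 mg/kg, whose interval was -0.84 to -0.000999 (adjusted p = 0.175). Fitted with only the 2 groups compared, Dcn (-0.43, adjusted p = 0.0479) and Prelp (0.44, adjusted p = 0.0361) were past the threshold at 2 mg/kg. The intervals of Bgn were -0.67 to 0.18 for vehicle, -0.46 to 0.44 for 2 mg/kg and -0.52 to 0.46 for 6 mg/kg.

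The study asked whether inhibition of HPGDS alters tendon healing. No member was called between doses at either time, in the test across the 3 doses, in any pair of doses or in the dose by time interaction (edgeR's quasi-likelihood test, adjusted p under 0.05). Among all genes, 2.05% were called across doses in 7-day tendons, 0% in 21-day tendons and 0.39% in the interaction. At an unadjusted p under 0.05 the test across doses gave 1 member and 1576 genes in 7-day tendons, and 0 members and 1366 genes in 21-day tendons, and the interaction gave 0 members and 985 genes. The 1 member was Dcn. It was at 4735, 3575, 3038, 3355 and 3753 CPM in 7-day vehicle, 6161, 5280.0, 4549 and 7103 CPM in 7-day 2 mg/kg and 3951, 5010.1 and 4617 CPM in 7-day 6 mg/kg tendons. Of the 4 tendons given 2 mg/kg, 3 were above all vehicle tendons, and the 6 mg/kg tendons overlapped both. The log2 difference of Dcn between 2 and 0 mg/kg was 0.65 (SE 0.20, adjusted p = 0.095), with an interval of 0.22 to 1.07, and 2.36% of genes were called in that comparison. It was past the threshold with DESeq2 (0.65, adjusted p = 0.0309) and without 7-day vehicle tendon 1 (0.75, adjusted p = 0.0480), and without each of the other 8 tendons it was not (0.53 to 0.74, adjusted p of 0.0775 to 0.310). Between 6 and 0 mg/kg the Dcn difference was 0.29 (adjusted p = 0.991), where 0.39% of genes were called.

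The precision of the dose comparisons differed between members. Between 6 and 0 mg/kg the 95% interval of the log2 difference of Bgn was -0.43 to 0.55 in 7-day tendons and -0.15 to 0.70 in 21-day tendons, and that of Lum was -0.42 to 0.80 and -0.28 to 0.78. Fmod had intervals of -0.66 to 0.97 and -0.30 to 1.12, and Kera -0.59 to 1.31 and -0.33 to 1.33. For Ogn and Chad the intervals were wide, at -2.01 to 2.19 and -3.88 to 0.13 in 7-day tendons, and a difference of several fold was not detectable at this spread. The 7-day tendons given the compound also held less muscle RNA than the vehicle tendons, at 71.6 to 91.3 CPM of the 16 muscle genes against 1419 to 10806 CPM, and its part in the dose comparisons was not tested.

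The enzymes that build the chains of these proteins, the proteinases that trim them and the collagens they bind were compared with control tendons as 6 lists, chosen by function. Of 58 genes listed 48 were tested, and 35 were higher, 2 lower and 11 not called in 7-day vehicle tendons, where 35.8% of all genes were higher and 35.6% lower. In 21-day vehicle tendons 36 were higher, 2 lower and 10 not called, against 32.2% and 33.7% of all genes. The median log2 fold change of the 48 genes was 1.11 and 0.995 at these times, and that of all genes was 0.05 and 0.03.

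The collagens bound by the family rose in 7-day vehicle tendons, 8 of 8 tested, with a median log2 fold change of 2.15. Col12a1, a collagen of fibril surfaces, rose most (log2 fold change 3.05, adjusted p = 1.1e-06), and Col3a1, the collagen of early scar, rose by 2.45. In 21-day vehicle tendons 7 of 8 were higher, and Col1a1, the main tendon collagen, was not called (0.52, adjusted p = 0.159). Tolloid proteinases cut procollagens and the proform of biglycan. Of 3 such proteinases and their enhancers tested, 2 rose in 7-day vehicle tendons. The larger rise was that of Bmp1 (1.44, adjusted p = 3.07e-06), and in 21-day vehicle tendons Bmp1 was the 1 still called.

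Of 6 enzymes that attach the linker on which chondroitin and dermatan sulfate are built, 4 rose in 7-day vehicle and 5 in 21-day vehicle tendons, with none lower. Xylt2, a xylosyltransferase that starts the chain, rose by 1.07 in 7-day vehicle tendons (adjusted p = 1.06e-09). Of 15 chondroitin and dermatan sulfate enzymes 11 rose and 1 fell at each time. The largest rise at 7 days was in Chsy3, a chondroitin synthase, at 0.49 to 1.13 CPM in control and 4.72 to 9.68 CPM in 7-day vehicle tendons (3.16, adjusted p = 1.03e-07), and the fall was in Chst3, a chondroitin 6-sulfotransferase (-0.74, adjusted p = 0.0109).

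Of 12 keratan sulfate and tyrosine sulfation enzymes 8 rose and 1 fell at each time, although keratan sulfate proteins themselves moved both ways. B3gnt7, which extends keratan sulfate chains, rose by 1.82 (adjusted p = 6.22e-05) in 7-day vehicle tendons, and St3gal3, a sialyltransferase, fell by 1.83 on the log2 scale (adjusted p = 6.43e-09). Among other leucine-rich matrix proteins, of which 4 were tested, 2 rose in 7-day vehicle and 4 in 21-day vehicle tendons. Podnl1, a podocan-like protein, was at 0.0817 to 0.16 CPM in control tendons, too few counts to give a fold, and at 7.93 to 26.3 CPM in 7-day vehicle tendons. Tsku, tsukushi, rose by 2.04 (adjusted p = 3.72e-08).

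**Figure D5:**
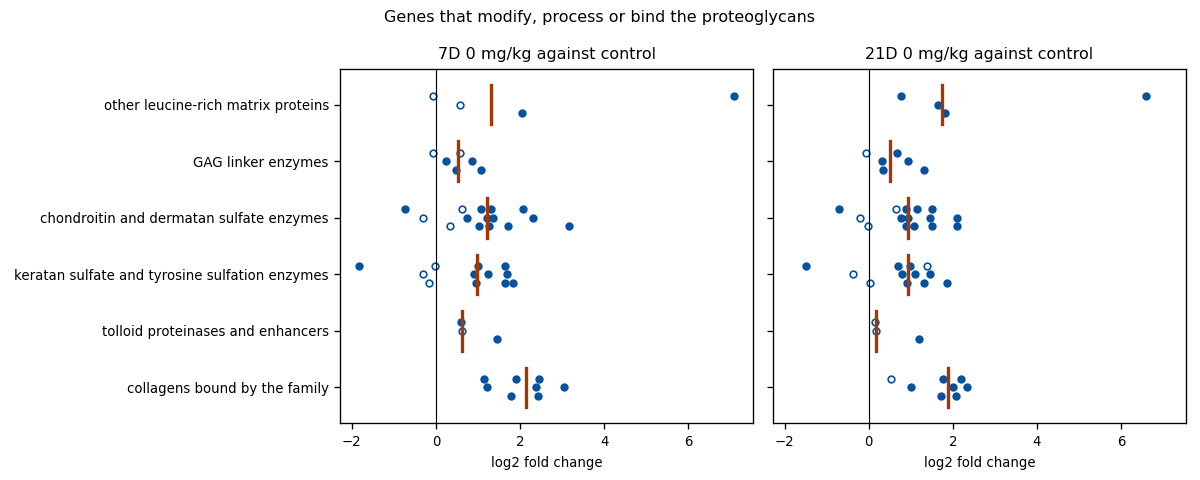
Log2 fold change against control tendons of the genes in 6 lists that build, trim or bind the proteoglycans, in 7-day vehicle tendons on the left and 21-day vehicle tendons on the right; filled points passed an adjusted p of 0.05, open points did not, and each bar is a list's median. The collagens lie furthest right as a list apart from Podnl1, with medians of 2.15 and 1.88.

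Markers of other cell types moved with the same comparisons, and their part in the members' results was not tested. Skeletal muscle genes fell, 16 of 16 in 7-day vehicle and 15 of 16 in 21-day vehicle tendons, with summed levels of 218766 to 410222 CPM in control and 1419 to 10806 CPM in 7-day vehicle tendons. Of 9 macrophage markers 6 rose and none fell in 7-day vehicle tendons, from a summed 458 to 2052 CPM in control to 2317 to 5558 CPM. All 6 T cell markers tested rose, 2 of 5 endothelial and 3 of 5 adipocyte markers rose, and of 3 bone markers 1 rose and 1 fell. Of all genes tested, 35.8% were higher and 35.6% lower in 7-day vehicle tendons, and the endothelial and bone rises were near that share. Of 8 tendon fibroblast markers 3 rose, also near that share, and 2 fell in 7-day vehicle tendons. Egr2 rose most (3.16), and Mkx, a factor of tendon differentiation, and Tnmd, tenomodulin, were lower (-4.10 and -1.43), while Scx was not called (0.80, adjusted p = 0.0708). Defining markers of tendon were present in the 3 control tendons, with Tnmd at 364, 147 and 178 CPM and Scx at 37.2, 19.0 and 25.3 CPM. In 21-day vehicle tendons 4 macrophage, 5 T cell, 2 tendon and 2 cartilage markers were higher, 1 tendon and 3 cartilage markers were lower, and no endothelial or adipocyte marker was called, while 1 bone marker was higher and 1 lower. Of all genes tested, 32.2% were higher and 33.7% lower in that comparison.

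Across the 30 tendons, deviations from the group mean in log2 CPM were compared between each member and 9524 other genes at a mean of 10 CPM or more, as a description that shares libraries and scaling. Dcn varied most like Pros1 (Pearson r = 0.90), Anxa1 and Serpinf1, and Bgn most like Tgfbi (r = 0.86), Sparc and Fndc1. Fmod varied most like Cpxm2 (r = 0.88), Dkk3 and Col8a2, Lum like C1qtnf3 (r = 0.81), Spon1 and Col11a1, and Kera like Ppic (r = 0.78), Pls3 and Stk26. Prelp had the closest match, Reck (r = 0.94), followed by Cybrd1 and Abi3bp. Ogn varied most like Aebp1 (r = 0.78), Fam180a and Sord, and Chad like Usp36 (r = 0.78), Cdhr1 and Angptl7. These matches were not computed without the control tendons, so how far they rest on them is not known. Among the members themselves the closest pair over all tendons was Dcn and Prelp (r = 0.80, and 0.48 without the control tendons), and next came Fmod and Kera (r = 0.72, and 0.61 without the control tendons). This order rested on the control tendons. Without them Fmod and Ogn were closest (r = 0.67), followed by Prelp and Ogn (r = 0.64).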

How the data were processed

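Per the paper's methods the authors used fastp for trimming and STAR for mapping to the rn6 rat genome with Ensembl annotation, and they deposited raw counts per gene. Their handling of strand is not given in the sources used here. Groups follow the labels for time and dose, which give 3 tendons at 7-day 6 mg/kg where the methods imply 4. The authors' table of edgeR comparisons holds fold changes and p-values and was not used. Tests used edgeR 4.0.16 in R 4.3.3. The filter kept the 12558 genes whose mean reached 3 CPM in any of the 7 groups and removed 566. One quasi-likelihood model with TMM scaling and a mean per group was fitted to all 30 tendons, and comparisons were contrasts of it with Benjamini-Hochberg adjustment over all genes kept and a threshold of 0.05. Intervals are 95%. The steps were tested on simulated data. Nothing in the labels ties replicates to separate litters or batches, so p-values measure the spread between these tendons. Floors of 3 counts and intervals of counts cover counting error only.

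The members and lists were chosen with earlier results of these data known. Genes named are all members, the genes of each list with the largest rise and fall in 7-day vehicle tendons past the threshold, markers a result turns on, and the 3 genes whose deviations were most like each member's. Col3a1, Col1a1, Col2a1, Col9a1, Col11a2, Acan, Comp, Sox9, Tnmd, Scx and Clec3a were named beside these after their values were seen. Promoter sequences are from RefSeq (GRCr8). Alternatives were RLE size factors, library size only, TMM without skeletal muscle genes, no filter, a filter at 10 CPM, a replicate block, a fit of only the groups compared, the skeletal muscle share as covariate, DESeq2 1.42.0, a 1.5-fold threshold, and leaving out each tendon.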

Additional observations from a re-analysis of the deposited data

Results flagged for a closer look

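Within the groups of 4 or 5 tendons, each member's highest and lowest tendon was compared with the rest of its group, and 5 of 40 such groups held a tendon far from the others. The cut-offs flag about 1 in 20 groups of independent, normally distributed values. CPM were used without logs and the members share tendons, so that rate does not apply and 5 of 40 is not a test. Chad was at 29.6 CPM in vehicle tendon 5 of the 7-day set, and the other 4 were at 1.42 to 4.90 CPM. Without it the 21-day minus 7-day log2 difference of Chad at 0 mg/kg turned from -0.29 to 1.42, and neither was called. Dcn was at 6376 CPM in tendon 3 of the 21-day 6 mg/kg set, with the others at 4201 to 4794 CPM. Bgn was at 4303 CPM in tendon 2 of the 7-day 2 mg/kg set, with the others at 2501 to 2784 CPM, and at 3195 CPM in vehicle tendon 3 of the 21-day set, with the others at 2276 to 2504 CPM. Fmod was at 344 CPM in tendon 4 of the 7-day 2 mg/kg set, with the others at 507 to 530.2 CPM. Groups of 3 tendons, which include the controls, were not examined this way.

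The effect of repair on Kera was flagged as differing between the times, which is the comparison of 21-day with 7-day tendons given above. The fall against control tendons was smaller in log2 terms at 21 than at 7 days by 1.63 with vehicle, 1.505 at 2 mg/kg and 1.76 at 6 mg/kg (edgeR's quasi-likelihood test, adjusted p = 0.0238, 0.0252 and 0.0207). The 3 comparisons use different tendons but come from 1 fit with a shared estimate of the spread. As given above, the call was kept in 5 of 10, 4 of 9 and 6 of 8 fits without 1 tendon. It was kept at no dose with the skeletal muscle share as covariate.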

How the results depend on the processing

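Single-member results had the same direction and side of the threshold in 598 alternative fits, lost a call in 23, gained one in 13 and changed sign in 14, and when tendons were left out these numbers were 513, 24, 19 and 20. Counts against control tendons moved by over 1.5 times as follows. With library size only, members higher at 7 days and 6 mg/kg became 4 and members lower became 1 at 21 days with vehicle and 1 at 2 mg/kg, and pathway genes lower became 1 at both times. That scaling moved the median of all genes to 0.641, 0.614 and 0.632 at 7 days and to 0.588, 0.540 and 0.508 at 21 days across rising doses, and the share of higher calls from 50.1 to 75.6% in the 7-day vehicle tendons and from 48.9 to 77.9% in the 21-day ones. With the skeletal muscle share as covariate, which separates control from repaired tendons, members lower became 0 at 7 days and 2 mg/kg and 1 at 6 mg/kg, and pathway genes lower became 1 at both times. With only the groups compared, members lower and pathway genes lower were each 1 at 21 days with vehicle, and with DESeq2 members lower were 2 at 21 days and 6 mg/kg. Between the times, members higher fell to 0 at each dose with the covariate and, in the fit of only the groups compared, to 0 at 6 mg/kg, and rose to 2 at 2 mg/kg. Members lower between the times rose from 0 to 1 at 0 mg/kg with DESeq2 and, in the fit of only the groups compared, to 1 at 0 mg/kg and 1 at 2 mg/kg. DESeq2 called 1 member higher between 2 and 0 mg/kg at 7 days. The cause of these moves was not tested.

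Without single tendons, members lower ranged from 1 to 4 at 21 days with vehicle, 1 to 3 at 2 mg/kg and 1 to 3 at 6 mg/kg, the 1 at vehicle and 2 mg/kg being without control tendon 2. Members higher between the times ranged from 0 to 1 at each dose, and between 2 and 0 mg/kg at 7 days from 0 to 1. Sign changes were in differences that were not called. Dcn against control tendons became 0.40 (7-day vehicle) and 0.46 (21-day vehicle) with library size only, 0.000542 (21-day vehicle) with the filter at 10 CPM, and -0.20 (7-day 6 mg/kg) and -0.0335 (21-day 2 mg/kg) with the covariate. Without single tendons Dcn ranged from -0.53 to 0.15, -0.22 to 0.46, -0.42 to 0.26, -0.31 to 0.36 and -0.13 to 0.54 at 7 days with vehicle and 6 mg/kg and at 21 days with vehicle, 2 and 6 mg/kg, and from -0.0273 to 0.17 between the times at 6 mg/kg. Bgn between the times at 2 mg/kg became 0.0151 with no filter, 0.00972 with the filter at 10 CPM and 0.18 with the covariate, and ranged from -0.10 to 0.20 without single tendons, and at 6 mg/kg it became 0.16 with the covariate and ranged from -0.16 to 0.0503. Ogn against control tendons became -0.53 and -0.63 at 7 days and 2 and 6 mg/kg with the covariate. Without single tendons Fmod at 21 days and 6 mg/kg ranged from -1.10 to 0.19, Prelp at 7 days with vehicle from -0.00428 to 1.21, and between the times at 0 mg/kg Ogn ranged from -0.34 to 0.43 and Chad from -0.996 to 1.42.

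The labels do not say whether a replicate number links tendons. Correlations of deviations between same-numbered tendons were -0.70 to 0.68, and 0 of 13 comparisons with 3 or more shared numbers had every correlation over 0.1. Deviations within a group sum to 0, so this rule cannot exclude a pairing or a batch carried by the numbers. The low Ogn levels were mostly in tendons numbered 1 or 2, as given above. With a replicate block, members higher between the times at 6 mg/kg became 0 (Kera 1.49, adjusted p = 0.0511), Ogn was called higher at 21 days at 2 mg/kg (2.71, adjusted p = 0.0209) and 6 mg/kg (2.18, adjusted p = 0.0481), and between the times Bgn at 2 mg/kg, Ogn at 0 mg/kg and Chad at 0 mg/kg became 0.0473, -0.33 and 0.33. The levels of Fmod, Kera, Chad and Prelp spanned 4.13-fold to 8.07-fold among the 3 control tendons.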
